A study of Rattus norvegicus with 20 samples.

Results

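miR-148b-3p and miR-152 are small regulatory RNAs of one family, and their levels were followed here in the soleus muscle and the dorsal root ganglia (DRGs) of rats after sciatic nerve injury. On the array they are named rno-miR-148b-3p and rno-miR-152. The array carried 350 miRNAs, of which 348 had 1 name in every file, and these 2 were selected on measured values, for their higher signal in injured than in sham soleus. All differences from sham in soleus are therefore given as a description, with no test.

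A miRNA guides a silencing complex to messenger RNAs, mainly by pairing of its bases 2 to 8, the seed, and lowers the amount or the translation of its targets. The family has 3 members, miR-148a, miR-148b and miR-152, which share a seed and so share most predicted targets. Its best-known target is the maintenance DNA methyltransferase, and the miR-29 family is known for targeting the de novo DNA methyltransferases. miR-148b and miR-152 are expressed in many tissues and mark neither muscle fibers nor neurons.

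The mature sequences are shown because the members of the family differ in so few bases that the seed, in capitals, is the same in all of them. They were taken from RefSeq on the rat build GRCr8. The array names its probe for miR-152 without an arm, and it was matched here to miR-152-3p.
miR-148b-3p: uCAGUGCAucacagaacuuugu
miR-152-3p: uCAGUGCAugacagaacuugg
miR-148a-3p: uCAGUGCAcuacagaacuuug
Counted from 1 at the 5′ end, miR-152-3p differed from miR-148b-3p by C10G and U20G over 21 aligned bases, and miR-148a-3p differed from it by U9C and C10U. Both changes of each lay outside the seed. Of 693 mature rat names in the RefSeq table, 3 had CAGUGCA at bases 2 to 8. The array measured 2 of these, and miR-148a-3p had no row of its own. Whether part of the signal of either member came from its relatives was not tested.

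The mature miR-148b-3p lies at chr7:136299930-136299951 on the plus strand, inside the gene Copz1. The mature miR-152-3p lies at chr10:82329435-82329455 on the plus strand, inside Copz2. The host genes are paralogs and encode zeta subunits of the coatomer coat of transport vesicles. The hairpin of miR-148b is shown with the mature strand in capitals, since it holds both arms that the array measured.
Mir148b hairpin: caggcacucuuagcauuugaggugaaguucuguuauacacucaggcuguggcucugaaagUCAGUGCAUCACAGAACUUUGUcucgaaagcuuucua
The mature strand takes bases 61 to 82 of the 97 bases, in the 3′ arm. The opposite arm, miR-148b-5p, was detected on 0 of 20 arrays, and its highest signal was 3.24 with an error of 2.32, on soleus array denervation 2.

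The rats were male Sprague-Dawley. In denervation, a segment of the sciatic nerve was removed and the stump ligated, and tissue was taken after 6 months. In entrapment, a non-constrictive silastic tube stayed around the intact nerve for 6 months, and in decompression the tube was taken off after 6 months and tissue was collected 3 months later, so that time since the first operation and decompression cannot be told apart. The sham group is labelled as a sham operation, with no time given. Each tissue, soleus or ipsilateral L4 to L6 DRGs, had 3 arrays per injury group and 1 sham array, 20 in all. The study's methods speak of 3 rats in every group, and neither they nor the labels say whether the sham array held RNA of 1 rat or of a pool.

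Each array gave a total gene signal per miRNA, an intensity after background subtraction, with an error and a detection call by the scanner software. Between 134 and 194 of the 348 miRNAs were detected on a soleus array and between 183 and 233 on a DRG array. Soleus arrays differed 6.20-fold in brightness and DRG arrays 1.62-fold, measured as the 75th percentile of the signal, to which each array was scaled within its tissue. That percentile was taken over 108 miRNAs in soleus and all 348 in DRGs, so these folds are not on one measure. Over the 102 miRNAs detected on all 20 arrays it ran from 410 to 2593 in soleus and from 612 to 1169 in DRGs. Over the 108, the soleus sham array was the dimmest of its tissue at 409, next to denervation 3 at 413, while the other soleus arrays reached 737 to 2539. On 12 of 45 control features in soleus and 24 of 45 in DRGs, all sham and denervation values lay on one side of all values of the other groups. Such features hold no rat miRNA, so that handling of the arrays and group cannot be told apart for contrasts across this divide. Of the tested miRNAs, 14.5% of 173 in soleus and 34.2% of 219 in DRGs showed such a divide. Neither miR-148b-3p nor miR-152 was among them, which for 2 miRNAs is near that background. The labelled tissues were checked by markers. The summed signal of 5 muscle miRNAs (miR-1, miR-133a, miR-133b, miR-206 and miR-499) was 56279 to 342043 on soleus arrays, and all 7 neuronal miRNAs of a fixed list were detected on every DRG array.

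In sham soleus neither miRNA was detected. The unscaled signal of miR-148b-3p was 1.48 with an error of 2.23, and that of miR-152 was 4.14 with an error of 2.26. Among the 348 miRNAs, ordered from the brightest, they held places 190 and 162. In injured soleus miR-152 was detected on 9 of 9 arrays and miR-148b-3p on 8 of 9.

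After scaling, the sham signal of miR-148b-3p was 3.73. The signal was 42.1, 30.9 and 12.9 on denervation arrays 1, 2 and 3, and on the third of these it was not detected. It was 16.3, 17.6 and 24.5 after entrapment and 21.5, 18.1 and 19.4 after decompression. All 9 injury arrays lay above sham, and the injury groups overlapped one another. Since sham was not detected, the fold was taken against a higher reference. This was the lowest signal above 0 of any detected miRNA on the sham array, 6.43 on the same scale. Against this reference miR-148b-3p was 3.98-fold higher after denervation, where 2 of 3 arrays measured it, 2.98-fold higher after entrapment and 3.05-fold higher after decompression. These folds are no strict lower bounds, since miR-152 was not detected on the same sham array at a scaled signal of 10.5. The measured log2 differences from sham were 2.78 ± 0.89, 2.36 ± 0.31 and 2.39 ± 0.12 (SD, n = 3 arrays each). The study itself listed miR-148b-3p as lower in soleus after entrapment and after decompression, the opposite direction. Why the directions differ was not tested.

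The scaled sham signal of miR-152 was 10.5. It was 37.7, 37.0 and 36.7 on the denervation arrays, 68.2, 33.8 and 34.2 on the entrapment arrays, and 25.9, 37.1 and 29.6 on the decompression arrays. Entrapment 1 stood highest, and the other 8 injury arrays lay between 25.9 and 37.7. The sham signal, though not detected, was above the lowest detected one and was used as its own reference. Against it miR-152 was 3.54-fold higher after denervation, 4.09-fold higher after entrapment and 2.91-fold higher after decompression. The error of that sham signal was 54.5% of its value, so these folds are no lower bounds. The log2 differences from sham were 1.82 ± 0.02, 2.03 ± 0.58 and 1.54 ± 0.26 (SD, n = 3 arrays each). Without entrapment 1 the middle value was 1.70.

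**Figure D1:**
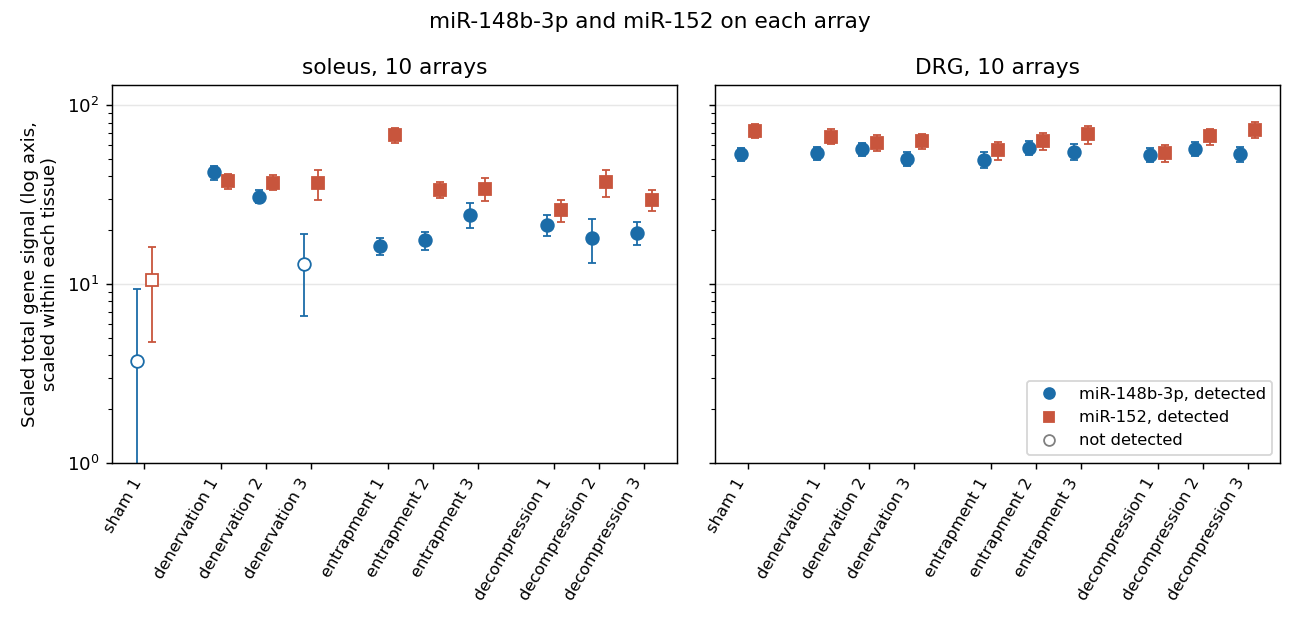
Scaled total gene signal of miR-148b-3p (circles) and miR-152 (squares) on each of the 10 soleus and 10 DRG arrays, on a log axis, scaled within each tissue. Bars are the scanner's error of the signal (the lower bar of miR-148b-3p on sham runs below the axis), and open symbols were not detected. In soleus all 9 injury arrays stand above sham for both, while in DRGs the values lie in narrow bands of 49.5 to 57.7 and 54.0 to 73.2.

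A miRNA was counted as higher when all 3 arrays of a group were 2-fold or more above sham. Both miRNAs met this in all 3 injury groups of soleus under the scaling used. So did 15.6% of the 173 tested soleus miRNAs after denervation, 11.0% after entrapment and 13.3% after decompression, and nothing is read from this count because the same contrast chose the members. A miRNA was tested where 3 or more of the 10 arrays detected it. The median difference from sham over all 173 was -0.07 after denervation, -0.37 after entrapment and -0.25 after decompression on the log2 scale.

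One comparison needed no scaling, because sham and denervation 3 were almost equally bright. The unscaled signal of miR-148b-3p was 5.14 with an error of 2.48 on denervation 3 against 1.48 on sham. Neither array detected it, and the difference of 3.66 was only 1.10 times its combined error of 3.33. For miR-148b-3p this comparison therefore shows no clear rise. The signal of miR-152 was 14.6 with an error of 2.80 against 4.14, a difference of 2.91 times its combined error. On brighter arrays the signal of miR-148b-3p was 3.60 to 11.9 times its error.

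The size of the group means in soleus depended on the scaling, and their sign did not. Over 5 other scalings or sources and a pseudocount, the mean difference from sham of miR-148b-3p ranged from 1.77 to 3.46 and that of miR-152 from 1.33 to 4.22 on the log2 scale. The exception was a single array, decompression 2, in the authors' processed values, which are scanner signals divided by a number for each array. That number was 1222 for decompression 2, against 38.7 to 100 elsewhere in soleus. Both miRNAs lay at the floor there, at -0.24 for miR-152 and 0.00 for miR-148b-3p relative to sham. Both were therefore 2-fold or more above sham on only 2 of the 3 decompression arrays in these values. After denervation miR-148b-3p was so on 2 of 3 arrays without scaling (lowest array 0.85) and with quantile normalization (lowest array 0.94). Places among the 348 miRNAs do not depend on a scaling factor. miR-148b-3p held places 102 to 131 on the injury arrays that detected it and a lower place on denervation 3, and miR-152 held places 84 to 114.

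Markers of other cell types were read on the same soleus arrays. Both endothelial miRNAs of a fixed list, miR-126 and miR-126*, exceeded sham 2-fold or more on every injury array, and their summed signal was 362 on sham and 1044 to 1708 on injury arrays. miR-126* was not detected on sham. The summed signal of 5 smooth muscle and connective tissue miRNAs (miR-143, miR-145, miR-199a-5p, miR-199a-3p and miR-214) was 3297 on sham and 1731 to 3047 after injury, with miR-199a-3p alone at least 2-fold higher on every injury array. The summed signal of the 4 leukocyte miRNAs measured, of 5 listed, was 681 on sham and 311 to 757 after injury, and that of the red blood cell miRNAs miR-144 and miR-451 was 1179 and 196 to 2258. The sum of the glial miRNAs miR-338 and miR-219-5p was 103 on sham and 49.2 to 210 after injury, and that of the 7 neuronal ones 0 and 0 to 39.6. The muscle sum was 196740.4 on sham and 96040.1 to 342043 after denervation. It lay below sham on all entrapment arrays (56279 to 114626) and all decompression arrays (99281 to 102338). Most of the muscle sum was miR-133b, at 174552 on sham. After entrapment and decompression the mean log2 differences from sham were -2.14 and -1.75 for miR-133b and -1.91 and -1.57 for miR-133a. They were 1.39 and 1.55 for miR-1, 2.00 and 2.95 for miR-499 and 0.61 and 0.82 for miR-206. miR-499 was not detected on sham. The muscle miRNAs thus did not move together. The part of these shifts in the higher signal of miR-148b-3p and miR-152 was not tested, and in whole muscle a change in the number of cells of a type and in the RNA per cell cannot be told apart.

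Injury groups in soleus were compared with each other by limma, an empirical Bayes linear model, over all 10 arrays of the tissue. This contrast did not choose the members. miR-148b-3p differed by -0.42 between entrapment and denervation (SE 0.42, 95% confidence interval -1.36 to 0.52, limma adjusted p = 0.616), and by -0.38 between decompression and denervation (adjusted p = 0.540, limma). Between decompression and entrapment its difference was 0.04, with an interval of -0.90 to 0.97. miR-152 differed by 0.21 between entrapment and denervation (interval -0.51 to 0.92), by -0.28 between decompression and denervation and by -0.49 between decompression and entrapment (interval -1.21 to 0.23). Neither was called in any of these 3 comparisons, where limma called 11.6%, 13.9% and 0% of the 173 miRNAs. In the last, 7 miRNAs, neither member among them, had an unadjusted p under 0.05. All 6 intervals span 0 and are wide, so these arrays do not show that the injuries acted alike.

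The comparison of miR-148b-3p with denervation rested on denervation 3, the array that did not detect it. Without that array the difference was -0.91 for entrapment (limma adjusted p = 0.0454) and -0.88 for decompression (limma adjusted p = 0.0417), both past the threshold. Without denervation 1 the same differences were -0.06 and -0.02. The scaling also turned the sign of the difference between decompression and denervation, to 0.19 with quantile normalization, and under none of the other scalings did it pass the threshold.

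Within an array the ratio of the 2 signals does not depend on scaling. In soleus the ratio of miR-152 to miR-148b-3p was 0.90, 1.19 and 2.84 after denervation, 4.19, 1.92 and 1.39 after entrapment, and 1.20, 2.05 and 1.52 after decompression. The highest ratio came from entrapment 1, and the ratio of 2.84 from denervation 3, where miR-148b-3p was not detected. The group means of the log2 ratio spanned 0.63, and an exact permutation test of the 9 injury arrays over all 280 groupings gave p = 0.564 for a difference among the groups. The span was 1.11 without denervation 3, 0.18 without entrapment 1 and 0.97 without entrapment 3, with p = 0.182, 0.943 and 0.343 in the exact permutation test. The smallest p that this exact permutation test can give is 0.00357. On sham the ratio was 2.81 with an error of 161%, and it carries no information.

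In DRGs the ratio was 1.24, 1.08 and 1.25 after denervation, 1.13, 1.09 and 1.25 after entrapment, 1.02, 1.18 and 1.37 after decompression, and 1.35 in sham. The group means spanned 0.04 on the log2 scale, and the exact permutation test gave p = 0.946. miR-152 gave the higher signal on every DRG array. This is no comparison of amounts, since each miRNA has its own probes.

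**Figure D2:**
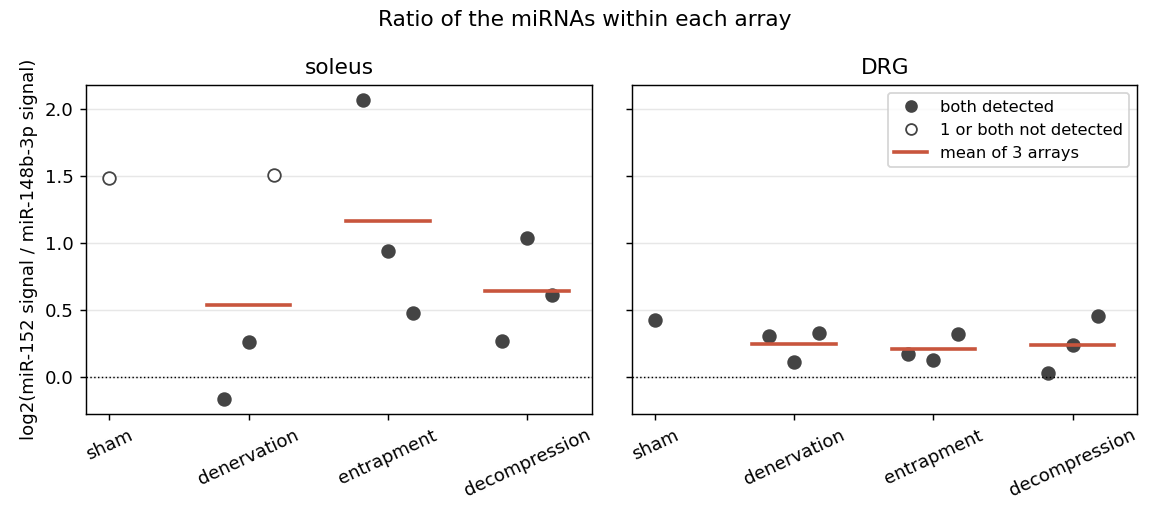
Log2 ratio of the miR-152 signal to the miR-148b-3p signal within each array, by tissue and group. Points are arrays, open where 1 or both were not detected, and bars are means of 3 arrays. The soleus ratios spread from 0.90 to 4.19 and the DRG ratios from 1.02 to 1.37 before taking log2.

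The DRGs had not been used to choose the 2 miRNAs, and there both were detected on all 10 arrays. The scaled signal of miR-148b-3p was 53.4 in sham, 53.9, 57.0 and 50.2 after denervation, 49.5, 57.7 and 55.1 after entrapment, and 53.0, 56.9 and 53.3 after decompression. Its highest value was 1.17 times its lowest, and sham lay inside the range of every injury group. The SD of its log2 signal over the 10 arrays was 0.074, the third lowest of the 219 miRNAs tested in DRGs, whose median was 0.228. The scanner error of its signal was 8.16% to 10.4% on these arrays, so the spread between arrays was no larger than the error of a single value. The percentile to which DRG arrays were scaled, 72.0 to 117 unscaled, lies near the signals of both miRNAs, which can itself lower their spread. Scaled instead over the 102 miRNAs detected on all 20 arrays, miR-148b-3p ran from 52.3 to 66.2. Sham at 58.9 then lay below all entrapment and decompression arrays.

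The scaled signal of miR-152 was 72.0 in sham, 66.9, 61.6 and 62.9 after denervation, 55.9, 63.1 and 68.9 after entrapment, and 54.0, 67.0 and 73.2 after decompression. Sham was above all 6 denervation and entrapment arrays and below 1 decompression array. The SD of its log2 signal was 0.14 over the 10 arrays, the 54th lowest of 219. Both were thus among the steadier miRNAs of the DRGs on this scale, with the limit that its percentile lies near their signals. Of the marker lists, the summed glial signal was 8108 on sham and 9973 to 12654 after injury, the neuronal sum 5010.3 and 4319 to 5228, and the leukocyte sum 914 and 491 to 1127. The endothelial sum was 630 and 502 to 689, the smooth muscle and connective tissue sum 1309.5 and 1072 to 1652, the red blood cell sum 3049 and 697 to 4313, and the muscle sum 327 and 252 to 401. The glial sum alone lay above sham on every injury array, and nearly all of it was miR-338 (8098 on sham). Within the lists, miR-126* and miR-9 were at least 2-fold below sham on every entrapment and decompression array. So were miR-144 on every denervation, miR-145 on every entrapment and miR-206 on every decompression array. No listed miRNA was 2-fold higher on every array of a group.

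Against sham, miR-148b-3p differed in DRGs by 0.01 after denervation (95% confidence interval -0.27 to 0.28), by 0.02 after entrapment (-0.26 to 0.29) and by 0.03 after decompression (-0.25 to 0.30) on the log2 scale. miR-152 differed by -0.17 (-0.59 to 0.24), -0.21 (-0.62 to 0.21) and -0.16 (-0.58 to 0.25). The limma adjusted p-values were 0.871 to 0.985 for miR-148b-3p and 0.414 to 0.664 for miR-152. Neither was called in any of the 3 comparisons, where limma called 0.457% of 219 miRNAs after denervation, 19.6% after entrapment and 18.3% after decompression. Nor was either 2-fold away from sham on each array, as 1.37%, 11.0% and 13.7% of the miRNAs were. The fit took the spread of the single sham array to be that of the injury groups.

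Between the injury groups of the DRGs, miR-148b-3p differed by 0.01 between entrapment and denervation (interval -0.19 to 0.21), 0.02 between decompression and denervation, and 0.01 between decompression and entrapment. miR-152 differed by -0.03 (interval -0.32 to 0.26), 0.01 and 0.04. limma called 41.1%, 36.5% and 0% of the 219 miRNAs in these comparisons, and neither of the 2. In the last, 9 miRNAs had an unadjusted p under 0.05, neither member among them. The intervals for miR-148b-3p ran from 0.88-fold to 1.16-fold over these 3 comparisons under the scaling used. In the DRGs the processed values that carry the names of entrapment and decompression arrays hold the scanner values of the other group, so which of the 2 labels is right could not be settled. The scanner labels were used.

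**Figure D3:**
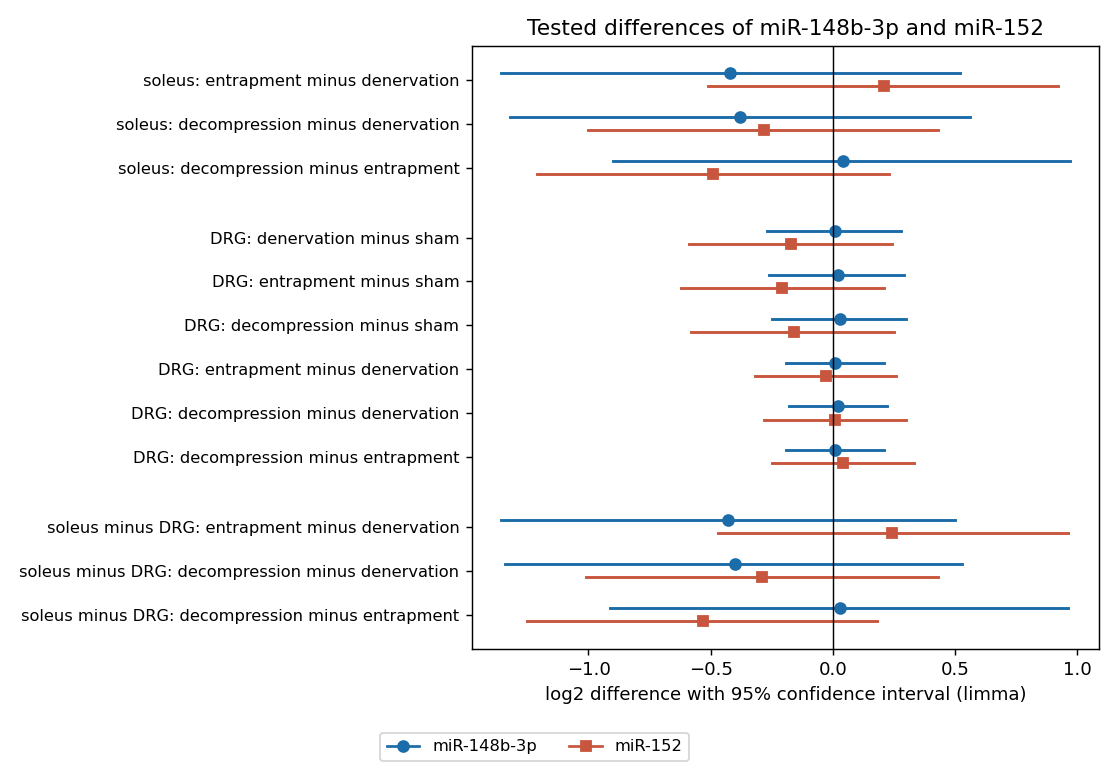
Log2 differences with 95% confidence intervals by limma for miR-148b-3p (circles) and miR-152 (squares). They are given between injury groups in soleus, against sham and between injury groups in DRGs, and as soleus difference minus DRG difference. Every interval spans 0, and the soleus intervals are wider than the DRG ones for both miRNAs.

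These DRG differences held only relative to the other miRNAs of the arrays. When arrays were scaled to the median of the 348 signals, miR-148b-3p came out 0.86 higher after entrapment (limma adjusted p = 0.00843) and 0.88 higher after decompression (0.00733, limma), and miR-152 0.64 and 0.69 higher (limma adjusted p = 0.0357 and 0.0258). Under this setting the median of all 219 tested miRNAs rose by 0.73 in both comparisons, and limma called 141 and 148 of them. Without any scaling the median fell by 0.47 in both, miR-148b-3p fell by 0.34 and 0.32, and miR-152 fell by 0.56 and 0.51, with no call for either. Relative to the median of all tested miRNAs, the difference of miR-148b-3p after entrapment was 0.13 under the main scaling, 0.13 without scaling and 0.13 under median scaling, and that of miR-152 was -0.09 each time. Sham and denervation arrays of the DRGs detected 213 to 233 miRNAs and entrapment and decompression arrays 183 to 200. The part of this in the shift under median scaling was not tested.

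**Figure D4:**
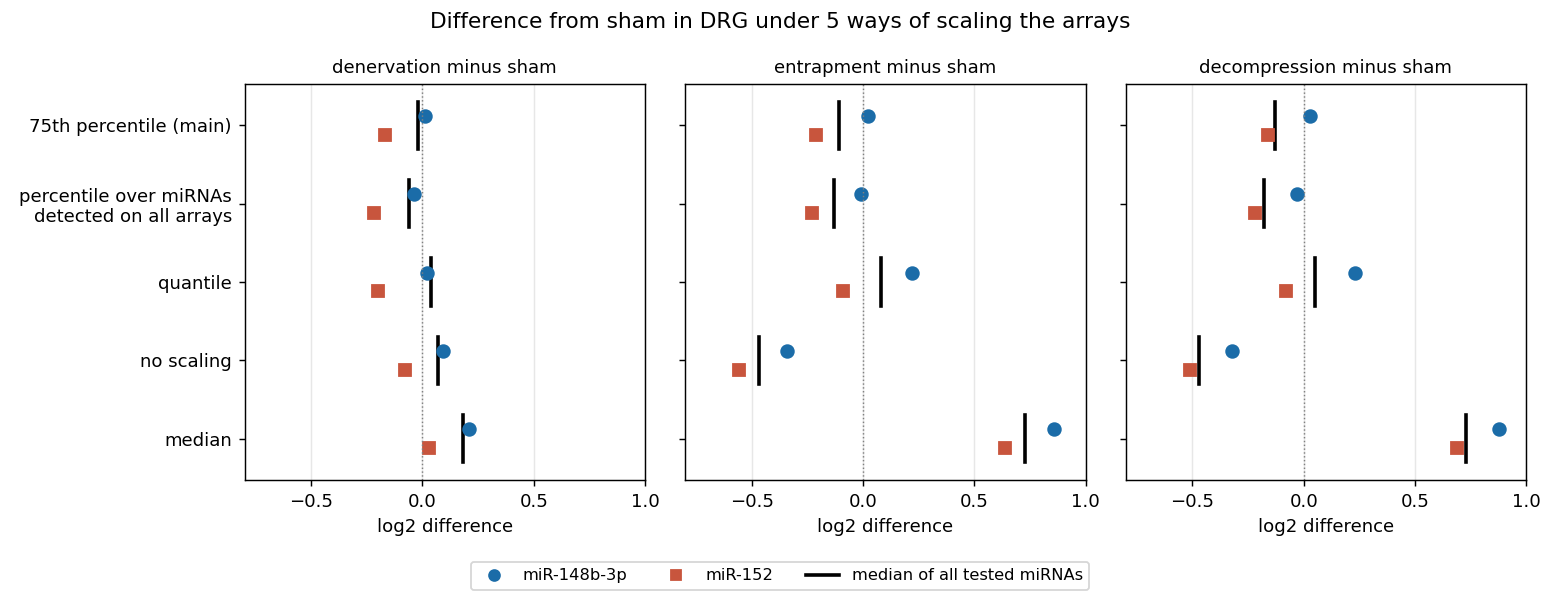
Log2 difference from sham in DRGs for miR-148b-3p (circles), miR-152 (squares) and the median of 219 tested miRNAs (vertical bars) under 5 ways of scaling the arrays. Both miRNAs move along with the median of all miRNAs, from -0.47 without scaling to 0.73 under median scaling after entrapment.

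Whether 2 injuries differed by another amount in soleus than in DRGs was tested in one limma fit over all 20 arrays and 162 miRNAs. For miR-148b-3p the difference between entrapment and denervation was lower in soleus than in DRGs by -0.43 (SE 0.44, limma adjusted p = 0.716). The corresponding value for miR-152 was 0.24 (SE 0.34, limma adjusted p = 0.753). For decompression against denervation the values were -0.40 and -0.29, and for decompression against entrapment 0.03 and -0.53. Neither miRNA was called, where 2.47%, 0% and 0% of the 162 were. At an unadjusted p under 0.05 limma had 36 miRNAs for decompression against denervation and 7 for decompression against entrapment, neither member among them. Without soleus denervation 3, miR-148b-3p passed the threshold for entrapment at -0.92 (limma adjusted p = 0.0317) and for decompression at -0.90 (limma adjusted p = 0.0311).

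To set the tissues side by side, all 20 arrays were scaled to the 75th percentile of the 102 miRNAs detected on every one of them. On this scale the mean signal of miR-148b-3p after denervation, entrapment and decompression was 25.5 ± 13.4, 16.6 ± 4.01 and 17.1 ± 1.67 in soleus and 58.5 ± 6.92, 64.3 ± 2.12 and 64.4 ± 1.69 in DRGs (SD, n = 3 arrays each). For miR-152 the means were 32.9 ± 0.852, 38.7 ± 17.2 and 26.7 ± 4.68 in soleus and 69.4 ± 3.25, 74.5 ± 7.15 and 76.4 ± 9.42 in DRGs. For both miRNAs every soleus array lay below every DRG array in each injury group, as it did for 48.1% of 162 miRNAs after denervation, 55.6% after entrapment and 54.9% after decompression, so that nothing particular to the pair is read from it. Within a tissue limma called no difference of either miRNA between the injury groups, and no order of the groups is given. The gap between the tissues shrank under other scalings. With quantile normalization of all 20 arrays it was -0.15 to -0.28 on the log2 scale for miR-148b-3p, against -1.36 to -1.98 on the common percentile, and for miR-152 after entrapment it turned to 0.34.

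The miR-29 family was given beside these, for the related targets named above, and its scaled signals were far brighter than those of the pair, with no comparison of amounts implied. In DRGs miR-29a was 2679 in sham and 4061 to 4741 after entrapment. It rose by 0.72 after entrapment (SE 0.12, limma adjusted p = 0.00336) and by 0.77 after decompression (limma adjusted p = 0.00238). miR-29b rose by 0.48 (limma adjusted p = 0.0148) and 0.51 (limma adjusted p = 0.0120), and miR-29c by 0.47 after decompression (limma adjusted p = 0.0282). The difference of miR-29c after entrapment was 0.39 (limma adjusted p = 0.0570), and limma did not call its difference between decompression and entrapment, 0.08. Its call after decompression was kept under 3 of 6 other settings. After denervation none of the 3 was called in DRGs, at differences of 0.15 to 0.35. Under 6 other scalings, sources and a pseudocount the difference from sham of miR-29a after entrapment kept its sign and lay between 0.33 and 1.56, and it was called under 5. That of miR-29b came down to 0.00 with quantile normalization and was called under 4. For miR-29a and miR-29b all sham and denervation arrays of the DRGs lay below all entrapment and decompression arrays. Such a divide, in either direction, was seen for 34.2% of the 219 miRNAs, and handling of the arrays and group cannot be told apart across it.

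In soleus miR-29b was 1202 in sham, 1332 to 2622 after denervation, 2724 to 5745 after entrapment and 3640.1 to 5989.5 after decompression. It rose by 1.75 after entrapment (SE 0.54, limma adjusted p = 0.0379) and by 1.86 after decompression (limma adjusted p = 0.0287). Its difference of 0.73 after denervation was not called. All its sham and denervation values in soleus lay below all its entrapment and decompression values. Such a divide, in either direction, was seen for 14.5% of the 173 miRNAs, and handling and group cannot be told apart across it. miR-29a differed from sham by -0.79, 0.05 and 0.23 and miR-29c by -0.93, -0.29 and 0.04, with no call. miR-29a and miR-29c were higher after decompression than after denervation, by 1.02 (limma adjusted p = 0.0233) and 0.96 (limma adjusted p = 0.0408). Both of these turned, to -0.20 and -0.26, in the authors' processed values. That miR-29 differed from the pair in these contrasts was not tested.

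miR-130a carries the 7 letters of the seed at its bases 1 to 7, shifted by 1 base, and has another seed. Its scaled signal in soleus was 713 in sham, 179 to 281 after denervation, 292 to 297 after entrapment and 207 to 312 after decompression. All injury arrays were below sham on this scale, and in the authors' processed values the mean differences turned to 0.21 after denervation and 0.91 after entrapment. In DRGs the scaled signal was 910 in sham and 828 to 1153 after injury. miR-130b and miR-301b, which also carry the shifted letters, were detected on no array.

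Likeness to the pair was measured as Pearson's r of the log2 scaled signal over the 10 arrays of a tissue, as a description. In soleus miR-148b-3p was most like miR-26b (r = 0.93), miR-30b-5p (0.93) and miR-196a (0.92), and miR-152 most like miR-21 (0.90), miR-140 (0.89) and miR-199a-3p (0.87). The sham array set much of this. The scaled signal of miR-26b was 183 on sham and 1122 to 1671 on the injury arrays, and that of miR-21 was 173 and 1341 to 2836. miR-21 is a miRNA of injured and fibrotic tissue, and miR-199a-3p and miR-140 are known from connective tissue and cartilage.

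The r between the 2 members in soleus was 0.67 over the 10 arrays. Of 172 miRNAs compared, miR-152 held place 20 in likeness to miR-148b-3p, and miR-148b-3p place 10 in likeness to miR-152. Over the 9 injury arrays alone their r was -0.16. Over the same 9 arrays r with miR-148b-3p was 0.95 for miR-26b, 0.83 for miR-30b-5p and 0.68 for miR-196a. The r with miR-152 was 0.61 for miR-21, 0.68 for miR-140 and 0.66 for miR-199a-3p. Under quantile normalization 0 of the 3 named miRNAs remained among the 3 most like miR-148b-3p in soleus, and 2 of 3 remained for miR-152.

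In DRGs miR-148b-3p was most like miR-434 (r = 0.85), miR-210 (0.75) and miR-30c-2* (0.66), and miR-152 most like miR-1 (0.78), miR-181a (0.76) and miR-301a (0.73), with r = 0.30 between the pair. Under quantile normalization 0 of these 3 remained for either member. None of the named miRNAs was the same in both tissues.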

How the data were processed

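Total RNA of 10 soleus and 10 DRG samples was put on Agilent rat miRNA arrays, in a single colour. Per the file headers and the study's methods, Agilent Feature Extraction 9.5.3 summed the probes of each miRNA after background subtraction, and the authors deposited this intensity, its error and a detection call, not normalized between arrays. The labels describe labelling by amplification and the methods by ligation of a Cy3 dye. The authors also deposited a series table of processed values, a signal equal, for nearly all values, to that intensity over 1 number per array, with the entrapment and decompression columns of the DRGs exchanged. It served as an alternative. The methods' LOWESS lacked a stated reference and was not repeated.

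Signals were divided by the array's 75th percentile and multiplied by the geometric mean of that percentile over the tissue's arrays. It was taken in soleus over the 108 miRNAs that every array detected and in DRGs over all 348. Signals under a floor, the median over arrays of the lowest detected signal above 0 (2.71 in soleus, 2.31 in DRGs), were raised to that floor before log2 transformation. The model, with limma 3.58.1 (R 4.3.3), took all 10 arrays of a tissue by group, with 6 residual and 3.081 (soleus) or 2.124 (DRGs) prior degrees of freedom. p-values were two-sided, except in the one-sided exact permutation test of the ratio, and Benjamini-Hochberg adjusted over all tested miRNAs at 0.05. The scripts were tested on simulated data. Sources do not say that samples were separate rats in every case, so that p-values measure the spread between these arrays.

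The members and all lists were chosen with earlier results of these data known. Named are the members, miRNAs with their seed, also shifted by a base, and their opposite arms, the miR-29 family, marker lists, and the 3 miRNAs most like each member per tissue. Those with the shifted seed were added after the values were seen. Alternatives were other scalings, the processed values, a pseudocount equal to the floor, other filters, an intensity trend, fewer arrays in the fit, a replicate block and leaving out each injury array. The number of arrays, and 1 sham array per tissue above all, limits the precision. Replicate numbers did not pair arrays.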

Additional observations from a re-analysis of the deposited data

Results flagged for a closer look

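miR-152 was above sham on all 3 soleus arrays and below sham on all 3 DRG arrays after denervation, and likewise after entrapment. The mean log2 difference of miR-152 from sham was 2.00 higher in soleus than in DRGs after denervation and 2.24 higher after entrapment. Neither difference between the tissues was tested, because the soleus side chose the miRNA. After median scaling the DRG differences were above 0, at 0.03 after denervation and 0.64 after entrapment, so that the opposite signs did not hold there.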

How the results depend on the processing

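Values are log2 differences, and each group of values keeps the order named with it. In soleus the means of both miRNAs relative to sham were above 0 under all alternatives run. For miR-148b-3p after entrapment and decompression they moved to 3.04 and 2.80 without scaling, 2.77 and 2.79 with the percentile over the other set of miRNAs, and 1.77 and 1.79 with a pseudocount. After entrapment the authors' processed values gave 3.29, and after decompression median scaling and quantile normalization both gave 2.53. For miR-152 after denervation, entrapment and decompression they moved to 3.30, 3.66 and 2.89 without scaling, 2.11, 2.84 and 2.33 with the other set, 2.43, 3.16 and 2.65 with quantile normalization, and 3.76, 4.22 and 2.37 with the authors' processed values. A pseudocount gave 1.59 after denervation.

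Between injury groups in soleus, entrapment minus denervation and decompression minus denervation of miR-148b-3p turned to 0.31 and 0.19 with quantile normalization and to 0.09 and 0.11 with the other set. Its decompression minus entrapment turned to -0.24 without scaling, -0.04 with median scaling, -0.12 with quantile normalization and -0.98 with the authors' processed values. Decompression minus denervation of miR-152 turned to 0.22 with quantile normalization and 0.21 with the other set. None of these turned values was called.

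In DRGs the signs of miR-148b-3p were not fixed. Without scaling, entrapment and decompression minus sham were -0.34 and -0.32, and minus denervation they were -0.43 and -0.41 and called (limma adjusted p = 0.0370 and 0.0446). Median scaling gave 0.86 and 0.88 relative to sham (0.00843 and 0.00733) and 0.65 and 0.67 relative to denervation (0.00591 and 0.00478). Quantile normalization gave 0.21 and 0.22 relative to denervation (0.0486 and 0.0438), and the authors' processed values -0.04 and -0.04. With the other set, denervation, entrapment and decompression minus sham were -0.04, -0.01 and -0.03, and decompression minus entrapment was -0.02. For miR-152, median scaling gave 0.03, 0.64 and 0.69 relative to sham (0.966, 0.0357 and 0.0258) and 0.61 and 0.66 relative to denervation (0.00881 and 0.00596). Entrapment minus denervation was 0.11 with quantile normalization, decompression minus denervation -0.42 without scaling and -0.08 with the authors' processed values, and decompression minus entrapment -0.03 with the latter. In DRGs the authors' processed values also exchange the entrapment and decompression arrays, so that this alternative changes the group labels along with the scaling.

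In the difference between tissues, soleus minus DRG, entrapment minus denervation of miR-148b-3p turned to 0.16 without scaling, 0.11 with quantile normalization and 0.06 with the other set, which gave 0.09 for decompression minus denervation. Its decompression minus entrapment turned to -0.26 without scaling, -0.06 with median scaling, -0.13 with quantile normalization and -0.98 with the authors' processed values. For miR-152, entrapment minus denervation turned to -0.19 with median scaling, and decompression minus denervation to 0.01 without scaling, 0.10 with quantile normalization and 0.21 with the other set. None was called. The level in soleus minus that in DRGs moved as follows for miR-148b-3p after entrapment and decompression: -0.74 and -0.74 with the percentile over all miRNAs, -0.17 and -0.28 with quantile normalization over all 20 arrays, which gave -0.15 after denervation, and -1.03 and -1.30 without scaling. For miR-152 after denervation, entrapment and decompression it was -0.54, 0.21 and -0.34 with the percentile over all miRNAs, -0.05, 0.34 and -0.06 with quantile normalization, and -0.91, -0.08 and -0.90 without scaling.

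Leaving out 1 injury array at a time gave these ranges. In soleus, miR-148b-3p ran from -0.91 to -0.06 for entrapment minus denervation, -0.88 to -0.02 for decompression minus denervation and -0.08 to 0.21 for decompression minus entrapment, and miR-152 from -0.13 to 0.38 for entrapment minus denervation. The lowest values of the first pair came without denervation 3, and limma then called both (adjusted p = 0.0454 and 0.0417). In DRGs, miR-148b-3p ran from -0.04 to 0.05, -0.03 to 0.08 and -0.01 to 0.04 for denervation, entrapment and decompression minus sham, and from -0.04 to 0.07, -0.03 to 0.06 and -0.05 to 0.06 for entrapment minus denervation, decompression minus denervation and decompression minus entrapment. The same last 3 ran from -0.10 to 0.05, -0.09 to 0.13 and -0.05 to 0.17 for miR-152. Soleus minus DRG, miR-148b-3p ran from -0.92 to -0.07, -0.90 to -0.05 and -0.09 to 0.20 for these 3, the lowest of the first pair called without soleus denervation 3 (0.0317 and 0.0311), and miR-152 from -0.09 to 0.41 for entrapment minus denervation.

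Replicate numbers are shared between groups but did not pair arrays, with a correlation over 0.1 for 1 of 9 same-numbered pairs in soleus and 4 of 9 in DRGs. With a replicate block miR-148b-3p in DRGs was -0.05, -0.04 and -0.03 for denervation, entrapment and decompression minus sham. The block changed no call of either miRNA. It took the miRNAs called in soleus from 20 to 12 for entrapment minus denervation and from 24 to 14 for decompression minus denervation.

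Over all miRNAs the calls of entrapment minus denervation in soleus went from 20 to between 0 (without scaling) and 39 (without denervation 3), and those of decompression minus denervation from 24 to between 0 (authors' processed values) and 43 (without denervation 3). In DRGs they went from 1 to at most 16 for denervation minus sham, from 43 to 19 to 141 for entrapment minus sham, from 40 to 18 to 148 for decompression minus sham, from 90 to 60 to 150 for entrapment minus denervation and from 80 to 53 to 154 for decompression minus denervation, the highest 4 with median scaling. The miRNAs past 2-fold in soleus went from 27 to 23 to 76 after denervation, from 19 to at most 95 after entrapment and from 23 to 2 to 65 after decompression. Soleus minus DRG, calls went from 4 to between 0 and 23 for entrapment minus denervation and from 0 to at most 36 for decompression minus denervation. The ratio test kept its side of the threshold under all alternatives. Of the 3 miRNAs most like miR-148b-3p in soleus, 3 remained with median scaling and 0 with quantile normalization, and for miR-152 it was 3 and 2. In DRGs these were 1 and 0 for miR-148b-3p and 0 and 0 for miR-152. Likeness over the 9 injury arrays was added after seeing the data. Signal near background and 1 sham array limit the soleus folds. Causes of these shifts were not tested.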
